A study of Arabidopsis thaliana with 28 samples.

Results

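Shoots of Arabidopsis thaliana sampled 3 h after a short drying treatment were compared with shoots sampled 0.25 h after it, using 2 arrays at each time, 4 of the 28 arrays of the series. The arrays were chosen by the organ and time in their labels, and no measured value entered the choice. The plants were Col-0 on Murashige and Skoog medium under 16 h days at 24 °C and 50% humidity. At 16 days of age and 3 h into the light they were exposed to flowing dry air for 15 min, lost 10% of their fresh weight, and were then kept in closed vessels, so that the plants of every group had been dried. The groups used here are shoots at 3 h and shoots at 0.25 h, with roots at 3 h and roots at 0.25 h, 2 arrays each, for the test of the difference between organs, and shoots at 6 h and 24 h for the later course of named genes. No undried plants are among the arrays analysed here. Time since drying and time of day moved together between 0.25 h and 3 h and cannot be told apart in this comparison, whereas 24 h falls near the clock time of 0.25 h. Nothing in the labels states that the replicate arrays stem from independent plants or cultures. The p-values therefore reflect the array-to-array spread alone, which may be technical.

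When a leaf loses water, cells respond within minutes through calcium, jasmonate and abscisic acid signals and later accumulate proteins that protect membranes and organelles. Rapid stress transcripts, many of them for transcription factors and calcium sensors, typically peak early and decay. Making ribosomes is among the most costly activities of a growing cell, and the genes for ribosomal proteins and for ribosome assembly are known to be regulated together with growth. Closing of stomata and time of day also change sugar and starch metabolism in leaves.

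The values are MAS5 signals of ATH1 probe sets, in which each array was scaled to a common mean, so that each value is a level relative to the other transcripts on that array. The 4 shoot arrays had median signals of 37.4 and 38.8 at 3 h, against 37.7 and 37.3 at 0.25 h. Replicates correlated at 0.984 for 3 h and 0.980 for 0.25 h (Pearson, log2 signals over all probe sets). Each of these 4 arrays matched its own replicate best. The shoot arrays of 0.5 h and 1 h did not, since each correlated more closely with an array labelled with the other time (0.979 to 0.980) than with its own replicate (0.961 and 0.963). They enter the estimate of the spread and the time courses, and no comparison. The green tissue genes RCA, which encodes Rubisco activase, and SBPASE, of the Calvin cycle, had signals from 1953 to 6113 on the 4 shoot arrays and from 17.61 to 166 on the 4 root arrays of 3 h and 0.25 h. The root hair expansins EXPA7 and EXPA18 stayed between 7.31 and 19.9 in shoots and were not called. Another root gene, the beta-glucosidase PYK10, rose in shoots, with 1583 and 1090 at 3 h against 582 and 520 at 0.25 h, while roots had 3080 to 3799. The summed signal of these 3 root genes was therefore 1603 and 1109 in 3 h shoots, against 610 and 549 in 0.25 h shoots. Their part in the results below was not tested. In a whole shoot, fewer cells of a type and less RNA per cell cannot be told apart.

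Of 18183 probe sets tested with limma over all 28 arrays, 5248 differed between 3 h and 0.25 h in shoots at an adjusted p of at most 0.05, which is 28.9% of those tested. Of these, 2720 were higher at 3 h (15.0%) and 2528 lower (13.9%). Among 10013 genes represented by their brightest probe set, 27.1% were called, 13.5% higher and 13.7% lower, and the gene groups below are read against these shares. Leaving out 1 of the 4 arrays lowered the count of probe sets called, the most to 3377 without the second 3 h array. The median change over all probe sets was -0.02 on the log2 scale. In roots, the same comparison called 651 probe sets (3.58%). The shoot change differed from the root change for 1978 probe sets (10.9%), a count that dropped to 1315 without the second 3 h root array, 1207 without the first 0.25 h shoot array and 1106 without the second 3 h shoot array. Per gene, the difference between organs called 9.80% (5.11% higher, 4.68% lower) and the root comparison 3.27% (1.62% higher, 1.65% lower). The 3 h shoots differed from 24 h shoots for 14.4% of genes (6.90% higher, 7.46% lower) and from 6 h shoots for 6.58% (3.24% higher, 3.35% lower). Changes are log2 differences, 3 h minus 0.25 h, of signal plus a pseudocount of 1.93, given ± the SE that limma estimated, with n = 2 arrays per group. They understate the change of dim transcripts. "Rose" and "fell" are used of genes past the threshold.

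Genes for ribosomes were lower in 3 h shoots. Of 235 locus codes listed for cytosolic ribosomal proteins, the annotation used here paired 133 with a probe set of their own. Of these, 123 passed the filter on low signal. Of these 123, 111 fell in 3 h shoots and 0 rose, 90.2% against 13.7% of all genes. The median change was -0.88, with quartiles of -1.04 and -0.69, and 36 genes had a change of -1 or below. Both 3 h arrays lay below both 0.25 h arrays for 120 of the 123 genes, as they did for 34.3% of all probe sets. The list was written after values of these data had been seen and is given as counts and medians. None of the 123 probe sets carries the suffix that marks signal shared with other genes.

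The levels show the same picture array by array. The median signal of the 123 genes was 507 and 453 on the 3 h shoot arrays, against 853.5 and 863 on the 0.25 h shoot arrays. In roots it was 992 and 1029 at 3 h, against 1236 and 1107 at 0.25 h. The median change per gene in roots was -0.19, where 1 gene fell and 0 rose. The shoot change was below the root change for 80 of the 123 genes and above it for 0 by the test of the difference itself, which called 4.68% of all genes lower. In the time course of shoots, the median of the group on each array, relative to the mean of 0.25 h, was -0.27 and -0.23 at 0.5 h, -0.39 and -0.34 at 1 h, -0.82 and -0.94 at 3 h, -1.05 and -1.07 at 6 h, -0.75 and -0.58 at 12 h and -0.42 and -0.74 at 24 h. The shoot arrays of 0.5 h and 1 h matched across their labels, so the order of these early values is not secure. The level was lowest on the 6 h arrays, and no later array was back at the 0.25 h level. Against 24 h, 40 of the genes were lower at 3 h and 0 higher (median -0.30), where 7.46% of all genes were called lower. This comparison uses the same 3 h arrays. The 24 h arrays were themselves unequal for this group.

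**Figure D1:**
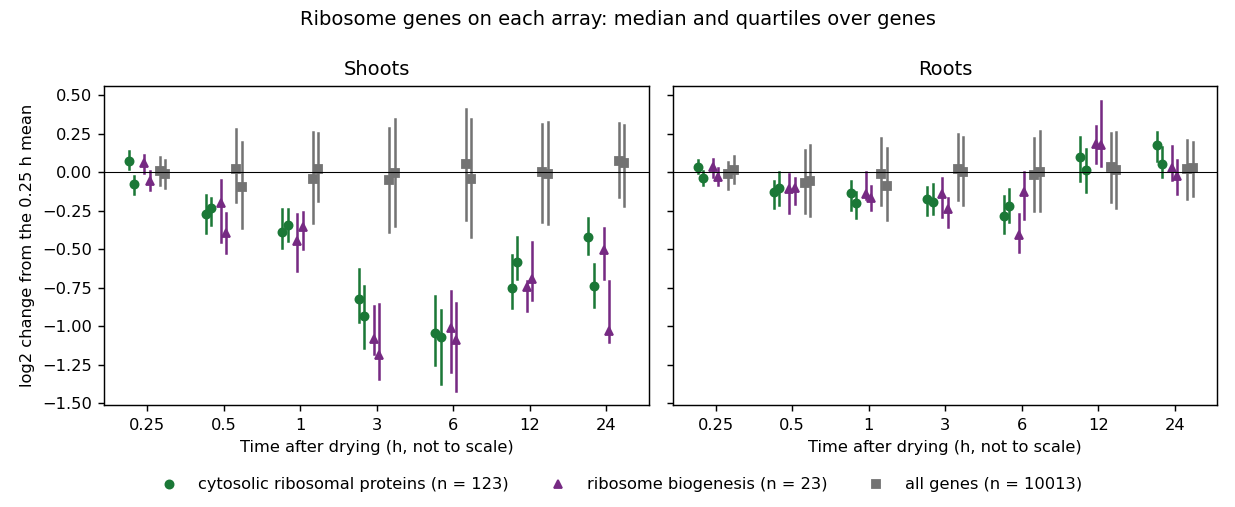
Median (symbol) and quartiles (bar) over genes of the log2 change from the 0.25 h mean, on each of the 2 arrays per time, in shoots (left) and roots (right); cytosolic ribosomal proteins are green circles, ribosome biogenesis genes purple triangles and all genes tested grey squares. In shoots the ribosomal protein medians lie at -0.82 and -0.94 at 3 h, while in roots they lie at -0.18 and -0.19. The order of the 0.5 h and 1 h shoot arrays is not secure, since they matched across their labels.

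The 4 ribosomal protein genes given first were chosen by rule as the called members with the largest changes. AT1G23410, which encodes the ribosomal protein S27a fused to ubiquitin, had signals of 16.6 and 19.2 in 3 h shoots, against 95.2 and 70.7 in 0.25 h shoots (log2 change -2.08 ± 0.18, adjusted p = 1.0e-07). It was the lowest change of the group. AT4G13170, a gene for ribosomal protein L13a, had 199 and 194 at 3 h, against 653 and 549 at 0.25 h (-1.60 ± 0.14). AT5G67510, a gene for L26, had 221 and 184 at 3 h, against 690 and 544.5 at 0.25 h (-1.59 ± 0.15). AT1G15250, for L37, had 27.2 and 25.5 at 3 h, against 97.1 and 97.9 at 0.25 h (-1.81 ± 0.23). In all 4 genes the 3 h arrays lay well below the 0.25 h arrays, which the choice favours. In all 4 the shoot change was below the root change, with differences of -1.62, -1.303, -1.44 and -1.49. Among the 12 genes that did not pass the test, AT1G36240 was the only one with a positive change (0.45, adjusted p = 0.30), at signals of 16.0 and 9.07 against 6.17 and 11.1. The bright gene AT4G27090 had 1370 and 1318 at 3 h, against 1562 and 1624 at 0.25 h, and missed the threshold (-0.25, adjusted p = 0.090).

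Genes for the making of ribosomes were lower as well. Of 23 measured genes for ribosomal RNA processing, ribosome assembly and RNA polymerase I, 22 fell and 0 rose, with a median change of -1.14. Their median signal was 73.1 and 74.2 on the 3 h shoot arrays, against 166 and 153 on the 0.25 h arrays. AT3G03920, a Gar1 protein of the particles that modify ribosomal RNA, had 141 and 127 at 3 h, against 371.5 and 369 at 0.25 h (-1.46 ± 0.15, adjusted p = 6.1e-07). AT1G52930, a Brix domain protein of large subunit assembly, had 63.0 and 68.2 at 3 h, against 174 and 178 at 0.25 h (-1.399 ± 0.18). AT3G12860, a NOP56-like protein, had 20.04 and 17.7 at 3 h, against 56.7 and 45.2 at 0.25 h (-1.34 ± 0.22). AT5G08180, a protein of the L7Ae family like yeast NHP2, had 64.9 and 54.9 at 3 h, against 163 and 143 at 0.25 h (-1.33 ± 0.15). NRPA1, the largest subunit of RNA polymerase I, had 36.9 and 30.9 at 3 h, against 79.5 and 74.3 at 0.25 h (-1.14 ± 0.16). The shoot change was below the root change for 13 of the 23 genes, these 5 included.

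Related groups were counted in the same way. Of 8 measured subunits of the cytosolic chaperonin CCT, which folds newly made proteins such as tubulin, 5 fell and 0 rose (median -0.52). The largest fall among them was that of AT5G16070, with 103.3 and 114 at 3 h against 256 and 242 at 0.25 h (-1.19 ± 0.16). Of 9 measured nuclear genes for plastid ribosomal proteins, 1 fell and 1 rose (median -0.28). The fall was that of AT3G13120 and the rise that of AT5G24490, at -0.37 and 0.58. By sign 8 of the 9 were lower. The count of falls was 0 without the first 0.25 h array or either 3 h array and 4 when the 14 shoot arrays were fitted alone, and the rise lost its call without the second 3 h array, so these calls are too unstable to set against those of the cytosolic ribosome. Of 7 histone genes, 4 fell and 0 rose, all 4 of them encoding histone H2B. HTB2 had 104 and 98.8 at 3 h, against 243 and 202 at 0.25 h (-1.11 ± 0.17), HTB1 changed by -0.73, HTB11 by -0.64 and HTB4 by -0.39. None of 6 measured cell cycle genes was called.

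The largest rises were far above the replicate spread. AT4G17470, of the palmitoyl protein thioesterase family, had signals of 927 and 1082 in 3 h shoots, against 2.26 and 2.06 in 0.25 h shoots (log2 change 7.94 ± 0.45, adjusted p = 9.9e-10). Its root signals averaged 0.71 at 3 h and 0.95 at 0.25 h, which is near the bottom of the scale. The 20 rises named by rule lie between 3.25 and 7.94, with adjusted p-values of at most 6.2e-05, and 1063 genes met the same conditions. All 20 had both 3 h arrays above both 0.25 h arrays, a condition of the rule.

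Some genes known to respond to dehydration or abscisic acid rose, COR15A and COR15B being among the 20 named by rule. COR15A, a chloroplast stroma protein that protects membranes in cold and drought, had 2288 and 2256 at 3 h, against 38.0 and 29.8 at 0.25 h (5.996 ± 0.77, adjusted p = 9.7e-06). COR15B, its tandem copy, had 678 and 590 at 3 h, against 38.7 and 23.2 at 0.25 h (4.31 ± 0.59). The dehydrin LTI30 had 116 and 142 at 3 h, against 13.2 and 20.3 at 0.25 h (2.83 ± 0.44). RD2, a gene named for its response to desiccation, had 383 and 367 at 3 h, against 131 and 154 at 0.25 h (1.39 ± 0.20). These 4 were the rises among 7 measured genes on the list of transcripts known to respond to dehydration or abscisic acid, and 0 fell. The dehydrin COR47 changed by 0.94 and did not pass the test. The shoot change exceeded the root change for all 4, by 3.56 for COR15A, 3.92 for COR15B, 2.32 for LTI30 and 1.24 for RD2. Of 14 measured late embryogenesis abundant protein genes, which include the COR15 genes and dehydrins, 5 rose and 0 fell, and 3 rose without the second 3 h array. The annotation used here paired no member of the list of abscisic acid signalling genes with a probe set, and that list is not analysed here. It leaves 8730 probe sets without a gene, so this does not show that the array lacks them.

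A pair of neighbouring genes of the RCI2 family, small hydrophobic membrane proteins known from cold and salt responses, rose together. AT4G30650 had 315 and 284 at 3 h, against 21.4 and 16.6 at 0.25 h (3.85 ± 0.49). AT4G30660 had 362 and 379 at 3 h, against 23.2 and 25.9 at 0.25 h (3.82 ± 0.17, adjusted p = 3.9e-11). Both were still lower at 3 h than at 6 h, by -1.66 and -1.13. The other 2 measured members of the family, AT2G38905 and AT2G24040, changed by -0.42 and 0.09 and were not called. Of 14 measured universal stress protein genes, 9 rose and 0 fell, and 5 rose without the first 0.25 h array. AT3G62550 led them, with 1107 and 1370 at 3 h against 82.7 and 98.97 at 0.25 h (3.74 ± 0.40), while roots averaged 11.5 at 3 h and 10.6 at 0.25 h. AT3G53990 followed, with 439 and 522 at 3 h against 104 and 148 at 0.25 h (1.93 ± 0.23).

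Genes of jasmonate turnover and of wound volatiles rose. JRG21, also known as JOX3, and AT2G38240 and AT5G05600, known as JOX4 and JOX2, encode oxidases that inactivate jasmonic acid. JRG21 had 111 and 138 at 3 h, against 4.63 and 3.08 at 0.25 h (4.46 ± 0.54). AT2G38240 had 348 and 313 at 3 h, against 12.4 and 14.01 at 0.25 h (4.46 ± 0.58). AT5G05600 had 248 and 249 at 3 h, against 28.0 and 21.8 at 0.25 h (3.23 ± 0.56). The fourth member, JOX1 or AT3G11180, was dim in shoots, with 5.27 and 6.72 at 3 h against 6.86 and 6.27 at 0.25 h (-0.10). It rose in roots, by 1.22. JRG21 and AT2G38240 also rose in roots, by 2.49 and 2.28, and for neither did the shoot change differ from the root change at the threshold (adjusted p = 0.11 and 0.098).

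Other enzymes of the pathway showed a rise in shoots beyond that of roots. OPCL1, a ligase of jasmonate synthesis in peroxisomes, had 238 and 190 at 3 h, against 88.6 and 46.1 at 0.25 h (1.70 ± 0.49, adjusted p = 0.014). JMT, which makes methyl jasmonate, had 118 and 92.9 at 3 h, against 26.3 and 16.1 at 0.25 h (2.24 ± 0.50). Their shoot changes exceeded the root changes by 2.397 and 3.25. BSMT1, which makes methyl salicylate and methyl benzoate, had 57.2 and 39.2 at 3 h, against 2.37 and 1.09 at 0.25 h (3.77 ± 0.63). CHAT, which makes the leaf volatile hexenyl acetate, had 64.2 and 63.2 at 3 h, against 16.4 and 7.07 at 0.25 h (2.35 ± 0.29). JMT, BSMT1 and CHAT were also higher at 3 h than at 6 h, by 3.89, 3.76 and 1.57. Of the 6 measured genes of the jasmonate list, JRG21, OPCL1 and JMT were the 3 that rose, and 0 fell. The other 3, the defensins PDF1.2 and PDF1.2b and the thionin THI2.1, changed by -0.23, -0.65 and 0.85 and were not called. Against 24 h these 3 were lower at 3 h, by -2.34, -2.56 and -1.81, and JMT was higher, by 1.95. Of the 6 genes, 2 fell when 0.25 h and 24 h were averaged.

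Lectin and inhibitor genes linked to defence of leaves against feeding insects and pathogens rose in part. The jacalin lectins JAL23 and AT1G52000 had 684 and 666 and 887 and 806 at 3 h, against 59.2 and 63.7 and 75.5 and 51.5 at 0.25 h, changes of 3.42 and 3.72. Of 17 measured jacalin lectin genes, 6 rose and 0 fell, and the median change was 0.07. Of 4 measured trypsin inhibitor genes, 3 rose: AT2G43550 with 1179 and 1176 at 3 h against 125 and 119 at 0.25 h (3.25 ± 0.30), AT2G43530 by 3.13 and AT2G43535 by 2.18. Of 6 measured strictosidine synthase-like genes 4 rose, AT3G51450 the most, with 522 and 479.5 at 3 h against 32.2 and 17.56 at 0.25 h (4.28 ± 0.59). These 3 lists were written after values had been seen.

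PORB, the light-dependent enzyme that makes chlorophyllide, had 2580 and 2808 at 3 h, against 209 and 208 at 0.25 h (3.68 ± 0.27, adjusted p = 2.4e-08). It rose in roots too, by 1.24 from a low level, and the shoot change exceeded that by 2.44. Among the 9 measured genes of the chlorophyll list, the further calls were HEME1 at 0.84 and GSA1 at -0.35. The call of GSA1 did not hold without the first 0.25 h array or the second 3 h array. GI, a clock gene that peaks late in the day, had 200 and 173 at 3 h, against 48.3 and 41.6 at 0.25 h (2.01 ± 0.27). It was higher at 3 h than at 24 h, by 1.85, and lower than at 6 h, by -1.46. Of 3 measured evening clock genes, GI was the only one that rose and 0 fell, with a median change of -0.006. The shoot change was above the root change for 1 of the 3 and below it for 1. The clock runs between these times, and its part in the rise was not tested.

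Many of the measured genes that break down amino acids rose. Of 18 measured genes on the list of dark and sugar starvation and branched-chain amino acid breakdown, 10 rose and 1 fell (median 0.75). Of 11 measured genes for the breakdown of leucine, isoleucine and valine, 7 rose and 0 fell. The shoot change exceeded the root change for 5. This list was written after values had been seen. Both lists cover branched-chain amino acid breakdown, so their counts are not separate results. IVD, isovaleryl-CoA dehydrogenase, had 127 and 184.5 at 3 h, against 44.8 and 52.4 at 0.25 h (1.62 ± 0.21). Both subunits of methylcrotonyl-CoA carboxylase rose, MCCA by 1.11 and MCCB by 1.09. AT4G20930, for 3-hydroxyisobutyrate dehydrogenase of valine breakdown, rose by 1.52 and ALDH6B2, further along that route, by 1.42. ETFALPHA and ETFBETA, which pass the electrons of IVD on to the respiratory chain, rose by 1.08 and 0.79. AT4G33150, the enzyme that starts lysine breakdown, had 95.8 and 136 at 3 h, against 40.5 and 43.3 at 0.25 h (1.41 ± 0.15). ALDH7B4, an aldehyde dehydrogenase known from drought, had 569 and 758 at 3 h, against 111 and 128 at 0.25 h (2.45 ± 0.19). The gene that fell on the list of starvation and amino acid breakdown was EXO, a growth-related extracellular protein, by -1.18.

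Of 6 measured starch genes, 4 rose and 0 fell, and 2 rose without the first 3 h array. DPE1, the plastid enzyme that handles maltotriose during starch breakdown, had 216 and 223 at 3 h, against 36.3 and 36.5 at 0.25 h (2.53 ± 0.11, adjusted p = 3.9e-11). PWD, which phosphorylates starch granules for breakdown, had 346 and 320 at 3 h, against 157 and 124 at 0.25 h (1.25 ± 0.15). Both were lower at 3 h than at 6 h, by -1.13 and -1.80. APL3, of starch synthesis, rose by 0.998 and the branching enzyme SBE2.2 by 0.58. DPE1 had a root change of -0.12, and the difference of 2.65 between the organs passed the test.

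Single sugar carriers moved in both directions. SWEET2, a vacuolar glucose carrier, had 78.5 and 74.5 at 3 h, against 395 and 450 at 0.25 h (-2.43 ± 0.32). SWEET4 had 75.9 and 74.6 at 3 h, against 15.6 and 21.5 at 0.25 h (1.93 ± 0.32), and SWEET13 had 66.8 and 67.2, against 26.7 and 22.02 (1.395 ± 0.25). SWEET11, one of the sucrose exporters of leaf veins, had 758 and 691 at 3 h, against 1044 and 1116 at 0.25 h (-0.58). Of 13 measured carriers, 4 rose and 2 fell, 30.8% and 15.4%, against 13.5% and 13.7% of all genes. The share that fell was thus near that of all genes. The rises were 2 without the first 0.25 h array, and the falls were 1 without any one of the 4 arrays.

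Anthocyanin genes rose with a wider spread between the 3 h arrays. DFR, the reductase that opens the anthocyanin branch, had 210 and 137 at 3 h, against 39.6 and 32.8 at 0.25 h (2.17 ± 0.36). UF3GT had 173 and 93.9 at 3 h, against 29.5 and 19.7 at 0.25 h (2.31 ± 0.37). AT4G14090, the anthocyanin glucosyltransferase also known as UGT75C1, had 106 and 63.1 at 3 h, against 13.7 and 8.21 at 0.25 h (2.73 ± 0.45). Each was higher on the first 3 h array than on the second, and each exceeded both 0.25 h arrays. Of 7 measured genes of the pathway 5 rose, and CHIL, which aids the step from chalcone to flavanone, fell (-0.82). The count of rises was 3 without the first 3 h array. The test of the difference between organs called 0 of the 7, and in roots 0 were called, so that a rise particular to shoots was not shown. Over the wider family of UDP-glycosyltransferases, which attach sugars to hormones and secondary metabolites, 13 of 38 measured members rose and 2 fell (1 without either 0.25 h array or without the second 3 h array), UGT84A3 the most, with 157 and 135.5 at 3 h against 26.1 and 23.2 at 0.25 h (2.48 ± 0.46).

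Of the small hormone lists, that of ethylene had 2 of 2 measured genes rising, that of gibberellin and brassinosteroid 2 of 3, and that of cytokinin 1 of 2 falling. The gibberellin receptors GID1A and GID1C rose, GID1A with 207 and 171 at 3 h against 61.9 and 53.0 at 0.25 h (1.68 ± 0.15) and GID1C by 1.32, while GID1B changed by 0.25. EIN3, the main transcription factor of ethylene signalling, rose by 0.51 and RTE1, which acts on the receptor ETR1, by 0.83. ARR15, a cytokinin response regulator, had 11.3 and 7.04 at 3 h, against 58.2 and 42.1 at 0.25 h (-2.24 ± 0.51). Its shoot change was below its root change by -2.48. None of 13 measured auxin response genes was called in either direction.

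**Figure D2:**
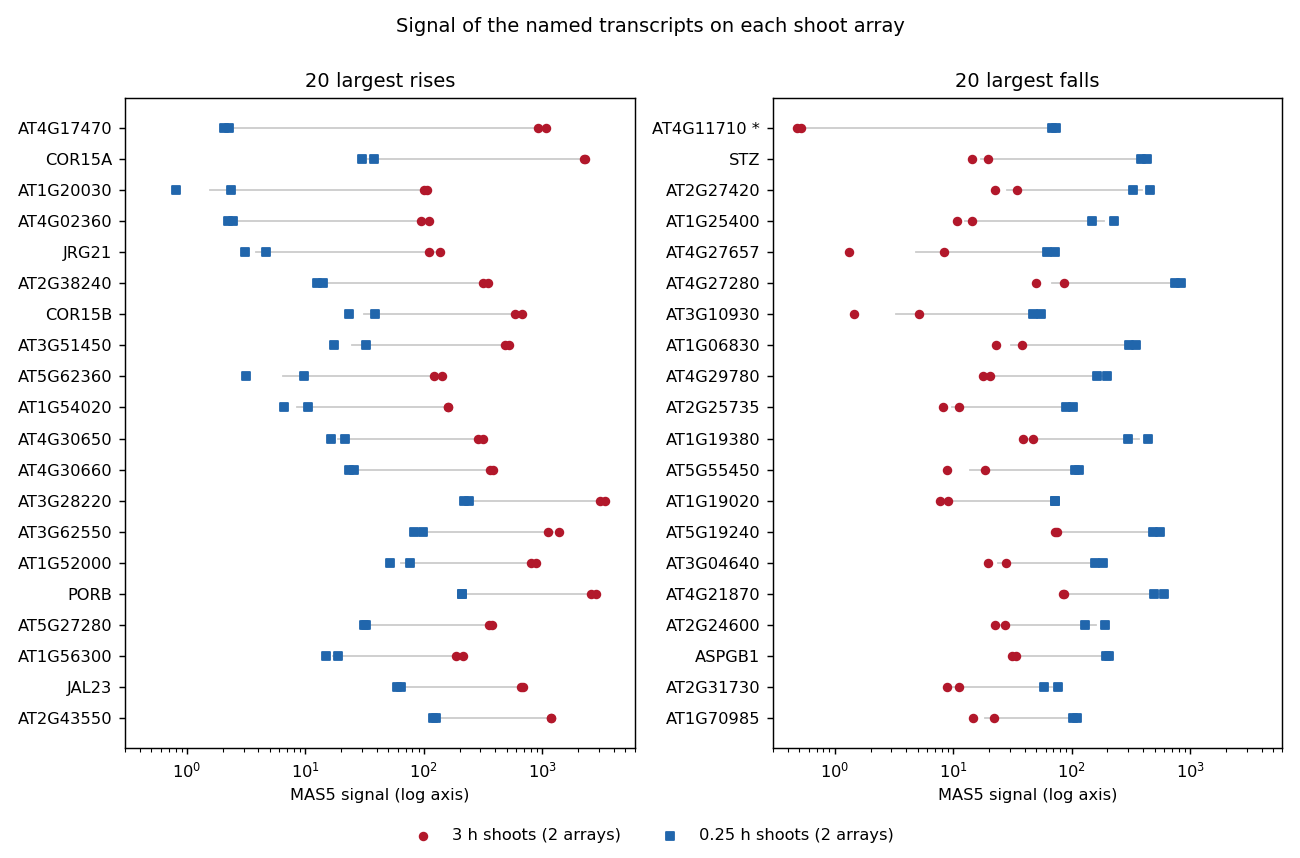
MAS5 signal (log axis) of the 20 largest rises (left) and the 20 largest falls (right) chosen by rule, with the 2 arrays of 3 h shoots as red circles and the 2 arrays of 0.25 h shoots as blue squares; grey lines join the group means and an asterisk marks probes that may also detect other genes. AT4G17470 stands at 927 and 1082 at 3 h against 2.26 and 2.06 at 0.25 h, and STZ at 14.3 and 19.6 against 384 and 433.

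The largest falls included transcripts known to respond early to stress. STZ, a zinc finger repressor induced within minutes by many stresses, had 14.3 and 19.6 in 3 h shoots, against 384 and 433 in 0.25 h shoots (-4.45 ± 0.35, adjusted p = 4.4e-08). It fell in roots as well, with means of 170 at 3 h and 1436 at 0.25 h (-3.07). AT4G27280, a calcium-binding EF-hand protein, had 50.1 and 85.6 at 3 h, against 745 and 839 at 0.25 h (-3.56 ± 0.34). AT1G25400 had 10.6 and 14.2 at 3 h, against 148 and 228 at 0.25 h (-3.70 ± 0.44). AT4G29780 averaged 19.1 at 3 h, against 182 at 0.25 h (-3.12 ± 0.30). At 24 h, near the clock time of 0.25 h, STZ averaged 14.1, AT1G25400 14.1 and AT4G29780 24.8, and their 3 h levels did not differ from these at the threshold (differences of 0.24, -0.04 and -0.35). AT4G11710, the largest fall, had 0.48 and 0.52 at 3 h against 68.1 and 73.6 at 0.25 h (-4.90 ± 1.09). The suffix of its probe set marks probes that may also detect other genes.

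Members of several groups of fast signalling genes fell in the same comparison. Of 4 measured early stress transcription factors, 3 fell: STZ, WRKY53 by -1.92 and WRKY22 by -1.57. WRKY53 had 11.1 and 6.64 at 3 h, against 37.2 and 38.8 at 0.25 h. WRKY6 had 11.8 and 11.3 at 3 h against 2.81 and 8.96 at 0.25 h and was not called. Of 8 measured U-box ubiquitin ligases, 4 fell and 0 rose, and 1 fell without the second 0.25 h array. They were PUB22 (-1.16), PUB26 (-1.12), PUB23 (-1.01) and PUB25 (-0.90), of which PUB22 and PUB23 are known to restrain immune and drought responses. Of 7 calmodulin-like genes, 3 fell and 0 rose, CML23 with 6.58 and 7.12 at 3 h against 47.3 and 45.9 at 0.25 h (-2.47 ± 0.57). RALF peptides, which signal through receptor kinases at the cell wall, gave all 3 falls among 12 measured peptide genes. RALFL33 had 137 and 145 at 3 h, against 348 and 472 at 0.25 h (-1.51 ± 0.15), RALFL22 changed by -1.54 and RALFL24 by -1.29. These groups differed in their relation to 24 h. At 3 h, 3 of the 12 peptide genes and 2 of the 8 U-box ligases were lower than at 24 h. Of the 7 calmodulin-like genes and the 4 early stress transcription factors, 0 were. Of all genes, 7.46% were called lower in that comparison, which uses the same 3 h arrays.

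A further set of falls differed from 24 h as well. AT2G27420, a papain family cysteine protease, had 34.4 and 22.3 at 3 h, against 457 and 326 at 0.25 h (-3.71 ± 0.32). Its mean was 270 at 24 h, and 3 h was lower than that by -3.19. ASPGB1, an asparaginase that frees ammonium from asparagine, had 31.1 and 34.0 at 3 h, against 205 and 196 at 0.25 h (-2.55 ± 0.29), and was lower at 3 h than at 24 h by -2.26. AT5G55450, a lipid transfer protein, had 8.88 and 18.6 at 3 h, against 107 and 115 at 0.25 h (-2.92 ± 0.35), and was lower at 3 h than at 24 h by -2.31. AT1G06830, a plant-specific CC-type glutaredoxin, had 38.1 and 22.7 at 3 h, against 304 and 347.5 at 0.25 h (-3.38 ± 0.44), and was lower than at 24 h by -2.09. These comparisons use the same 3 h arrays. Of 15 measured CC-type glutaredoxins, 6 fell and 0 rose (median -0.83), and 3 fell without either 0.25 h array or without the first 3 h array. The shoot change was below the root change for 3 of the 15 by the test of the difference.

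**Figure D3:**
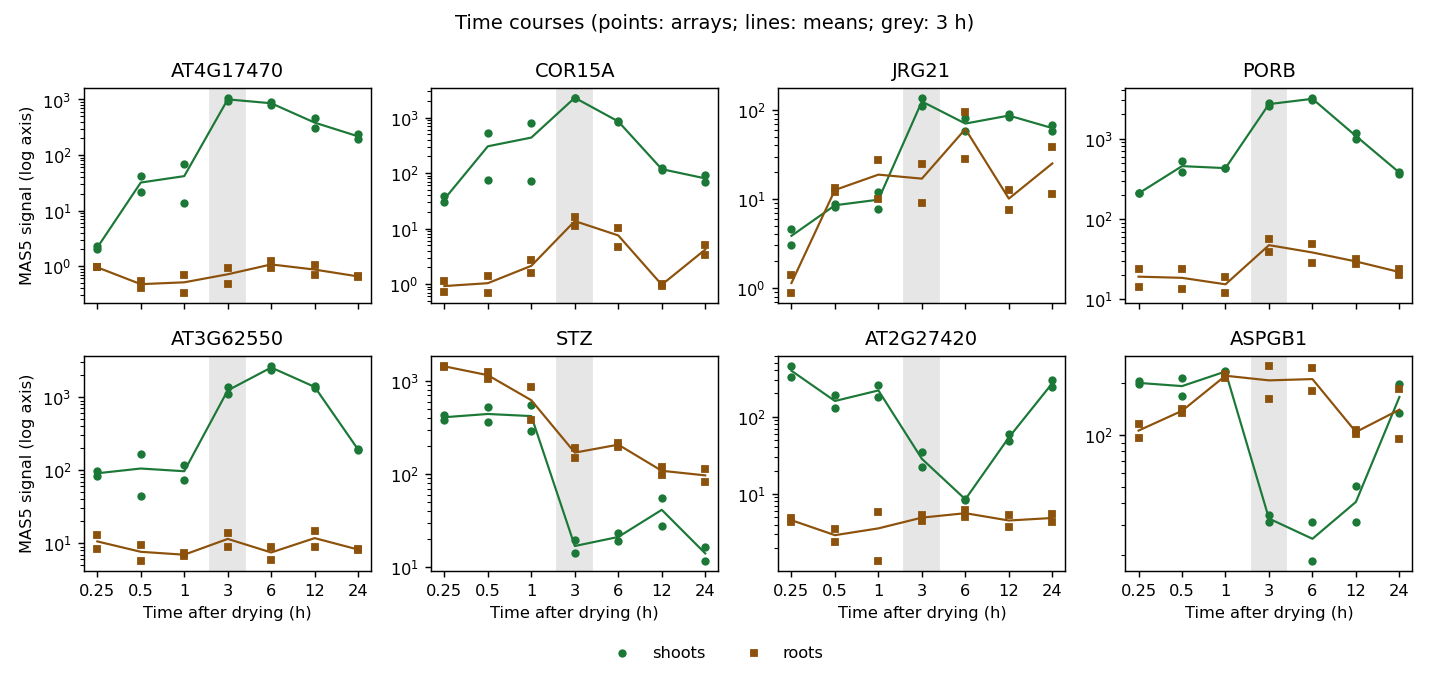
MAS5 signal (log axis) of 8 named genes at the 7 times, in shoots (green circles) and roots (brown squares); points are arrays, lines join group means, and the grey band marks 3 h. In shoots, STZ means were 16.97 at 3 h and 14.1 at 24 h, while AT2G27420 and ASPGB1 return toward their 0.25 h level (270 and 166 at 24 h). The order of the 0.5 h and 1 h shoot arrays is not secure, since they matched across their labels.

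Counts of called photosynthesis genes depended on the fit. Of 11 measured nuclear photosynthesis genes 0 rose and 1 fell, SBPASE, with 2308 and 1953 at 3 h against 3559 and 3390 at 0.25 h (-0.71 ± 0.25, adjusted p = 0.040). All 11 had a negative change, with a median of -0.18. The count of falls was 0 without any one of the 4 arrays, and 5 when the 14 shoot arrays were fitted alone. Of 43 plastid-encoded photosynthesis transcripts, 1 rose and 3 fell, and the median change was -0.06. The falls were petN (-1.62), rbcL, which encodes the large subunit of Rubisco (-1.35), and petB (-0.38), and the rise was ndhG (0.78). The count of plastid-encoded falls was 1 without the second 3 h array and 7 when the 14 shoot arrays were fitted alone, and the rise lost its call without any one of the 4 arrays. Of 19 measured genes for loosening and remodelling of cell walls, 0 rose and 3 fell, 15.8% against 13.7% of all genes. The count was 1 without any one of the 4 arrays and 6 once the 0.5 h and 1 h shoots were dropped. EXLA3, an expansin-like gene, had 1.304 and 0.47 at 3 h against 8.05 and 18.19 at 0.25 h (-2.35). It was dim at both times, and both 3 h signals lay below the pseudocount of 1.93.

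**Figure D4:**
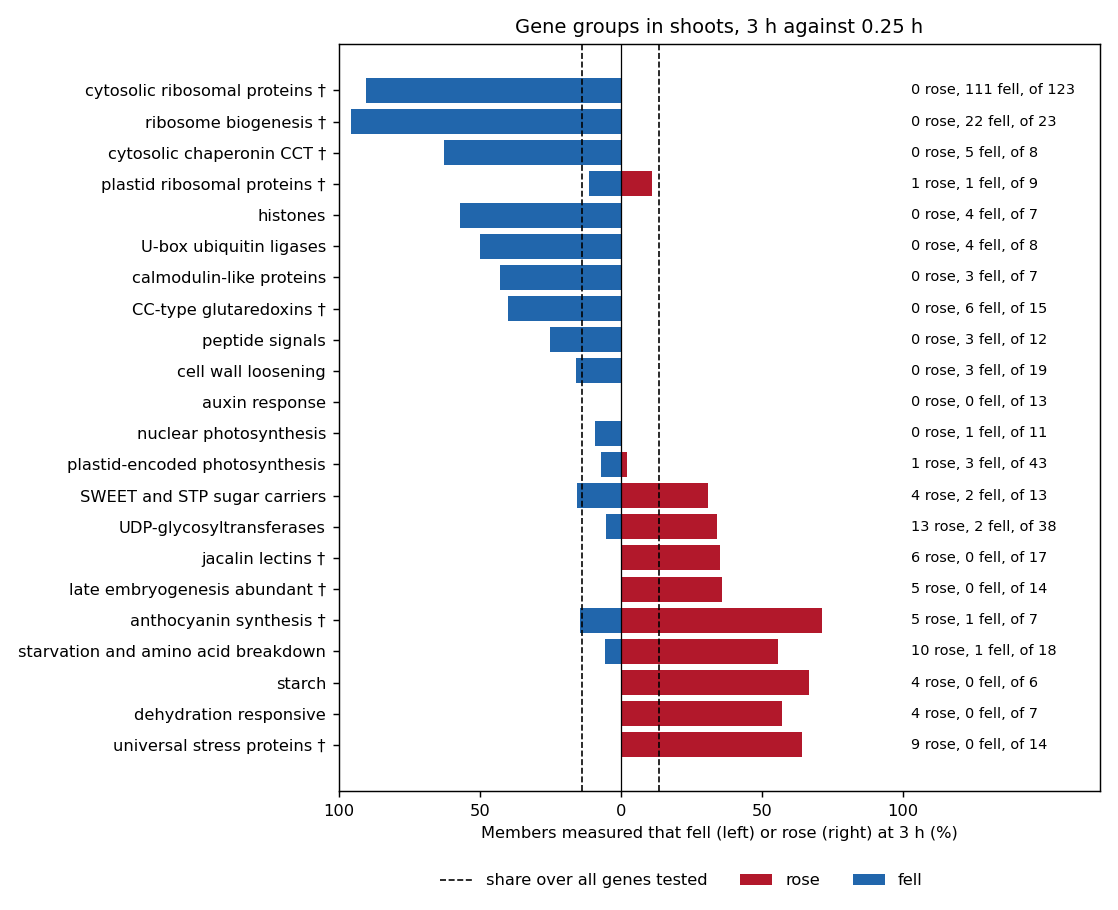
Share of measured members that fell (blue, left) or rose (red, right) in shoots at 3 h against 0.25 h, with the counts at the right. The 22 gene groups shown were picked without a set rule from 69 lists and families with a measured member. Groups left out include some with few or mixed calls, such as TBL proteins (3 rose and 3 fell of 21). Dashed lines mark the shares over all 10013 genes, 13.7% lower and 13.5% higher, and a dagger marks lists written after values had been seen. Ribosome groups lie to the left (111 of 123 and 22 of 23 fell) and universal stress proteins to the right (9 of 14 rose, 5 without the first 0.25 h array).

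The change in shoots was tested against the change in roots. The 5 largest positive differences past the threshold, by the naming rule, were those of AT4G17470 (8.07), AT1G20030 of the thaumatin family (4.101), COR15B (3.92), AT3G51450 (3.69) and AT3G62550 (3.64). AT1G20030 had 107 and 99.2 in 3 h shoots, against 0.81 and 2.34 in 0.25 h shoots. The 5 largest negative ones were those of AT2G27420 (-3.78), ASPGB1 (-3.48), AT4G19820, a family 18 chitinase-like gene (-3.41), SWEET2 (-3.19) and AT5G55450 (-2.94). For ASPGB1, AT4G19820 and SWEET2 the root changes were 0.93, 1.13 and 0.75, none of them called. AT4G19820 had 16.9 and 17.7 in 3 h shoots, against 83.6 and 99.3 in 0.25 h shoots. AT2G27420 and AT5G55450 were dim in roots, with means of 4.93 and 0.35 at 3 h and 4.56 and 0.33 at 0.25 h, so that a fall of the size seen in shoots could not have been measured there. The early transcripts STZ and AT4G29780 showed no called difference between organs (-1.38 and 0.57).

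**Figure D5:**
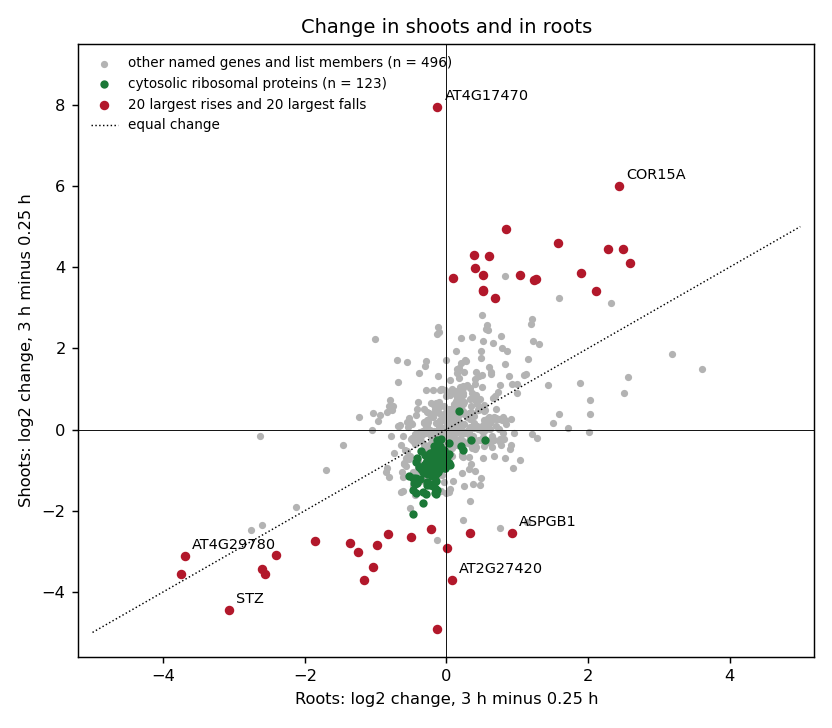
Log2 change from 0.25 h to 3 h in shoots (vertical axis) against that in roots (horizontal axis) for the named genes and the members of all lists, 1 point per gene; cytosolic ribosomal proteins are green, the 20 largest rises and 20 largest falls red, others grey, and the dotted line marks equal change. Most ribosomal protein genes lie below the line, with medians of -0.88 in shoots and -0.19 in roots.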

How the data were processed

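The deposited table holds array signal intensities on a linear scale, 1 per probe set of the Affymetrix ATH1 array, which the submitters' processing notes credit to MAS5; its version is not given in the sources used here. It scales each array to a common mean (a mean of 100.01 with 2% trimmed at each end on each of the 4 shoot arrays), so a shift shared by most transcripts cannot be seen, and no detection calls were used. Precision is limited by the 2 arrays per group.

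The 64 control probe sets were left out, log2(signal + 1.93) was taken, with the 10th percentile of all values as pseudocount, and probe sets above their array's 30th percentile on both arrays of at least 1 group were kept (18183 kept, 4563 removed). The 14 groups were fitted in limma 3.58.1 (R 4.3.3), letting the prior variance follow the mean signal and leaving 14 residual degrees of freedom. Tests were two-sided with Benjamini-Hochberg adjustment over all probe sets tested, at 0.05.

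Probe sets were named through the platform annotation (13513 probe sets with 1 gene, 503 with several, 8730 with none; 13436 found in the RefSeq gene table of TAIR10.1, from which symbols alone were taken). A gene with several probe sets is represented by the brightest. Named genes are the 20 largest rises and falls past the threshold, with both 3 h arrays on one side of both 0.25 h arrays and a mean signal of at least 50 in the higher group, the 5 largest differences each way between organs, and up to 4 called members per list, or every member of lists of 5 or fewer. Members beyond these 4 were chosen after their values were seen. The members and lists were chosen with earlier results of these data known. Another 16 lists by locus code (cytosolic and plastid ribosomes, ribosome biogenesis, CCT, JOX, RCI2, universal stress proteins, lectins, glutaredoxins, trypsin inhibitors, strictosidine synthase-like genes, volatile enzymes, anthocyanin, small heat shock proteins, branched-chain amino acid breakdown and late embryogenesis abundant proteins) were added after the values had been seen. Of 70 symbol lists and families, 17 had no gene paired with a probe set in that annotation and are not analysed here.

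Data were simulated for 3 h against 0.25 h in shoots, with 200 of 18183 probe sets changed. The fit recovered 60% of 2-fold and 83% of 4-fold changes, and 5.92% of 152 calls were false. Far fewer probe sets were changed there than the 28.9% called in the data, so these rates need not hold for the data. Alternatives changed 1 choice at a time and are given in the closing section.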

Additional observations from a re-analysis of the deposited data

Results flagged for a closer look

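By the test of the difference itself, the change from 0.25 h to 3 h differed between shoots and roots for 1978 probe sets, 10.9% of those tested. Among genes named by rule, the shoot change was above the root change by 8.07 for AT4G17470, 4.101 for AT1G20030, 3.92 for COR15B, 3.69 for AT3G51450 and 3.64 for AT3G62550 (log2). It was below the root change by -3.78 for AT2G27420, -3.48 for ASPGB1, -3.41 for AT4G19820, -3.19 for SWEET2 and -2.94 for AT5G55450. For 80 of 123 cytosolic ribosomal protein genes the shoot change was below the root change, and for 0 it was above. Root signals of AT4G17470, AT5G55450 and AT2G27420 averaged 0.71, 0.35 and 4.93 at 3 h, so a fall of the size seen in shoots could not have been measured in roots for AT5G55450 and AT2G27420.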

How the results depend on the processing

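The number of probe sets called in shoots, 5248, lay between 4486 (only the 14 shoot arrays) and 6158 (array weights) under the alternatives that keep all 4 compared arrays, and between 3377 and 3904 when 1 of them was left out, lowest without the second 3 h array. The difference between organs, 1978 probe sets, lay between 1771 (no variance trend) and 2743 (0.5 h and 1 h shoots dropped), and between 1106 and 1583 with 1 array left out (1315 without the second 3 h root array, 1207 without the first 0.25 h shoot array and 1106 without the second 3 h shoot array); the cause was not tested, beyond the smaller number of arrays. With 1 array gone, the single one remaining in that group takes its variance from the other groups. The replicate number as a block gave 5055 and 1837 calls. The numbers are not known to pair the samples, and the residual correlation between 3 h and 0.25 h shoots was 0.03. Over 42 pairs of groups of the same organ, 3 lay above 0.1, the median was 0.008 and the lowest was -0.584. Many counts of list members that moved by over 1.5 times with 1 array left out stand beside those lists above, but not all do. The cause was not tested. The ribosomal protein count of 111 lay between 106 and 114 under all alternatives, with medians between -0.94 and -0.59 (the smallest fall when 0.25 h and 24 h were averaged). Quantile normalization moved the median of all probe sets from -0.016 to -0.019. Of the 40 largest rises and falls, 1 lost its call under 1 alternative: AT4G11710, -2.57 against that average (adjusted p = 0.052). These 40 were chosen for large called changes in the same data, which favours keeping the call. Of 204 named genes, 42 lost their call under at least 1 alternative, and 0 changed sign while called. Low signals near the pseudocount limit what can be said of falls of dim transcripts.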

Other observations

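Of 8 aldehyde dehydrogenase genes, 4 rose and 2 fell (1 without the first 0.25 h array or either 3 h array). ALDH10A9 and ALDH10A8, betaine aldehyde dehydrogenases, rose by 1.13 and 1.01, with ALDH10A8 at 788 and 878 at 3 h against 384 and 443 at 0.25 h, while ALDH2C4, which makes ferulic and sinapic acid, fell by -0.85. Of 14 beta-glucosidases, 6 rose and 2 fell (1 without any one of the 4 arrays), BGLU44 with 1054 and 1078 at 3 h against 182 and 175 at 0.25 h (2.56 ± 0.19). Of 7 tubulins 1 rose and 1 fell, shares near the 13.5% and 13.7% of all genes called higher and lower. The beta-tubulin TUB5 had 461 and 416 at 3 h, against 113 and 162 at 0.25 h (1.68 ± 0.23), while TUB9 fell by -0.66. Of 3 measured low-oxygen genes 1 rose, PDC2, a pyruvate decarboxylase of fermentation, with 180 and 178 at 3 h, against 33.6 and 47.9 at 0.25 h (2.105 ± 0.39).

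Among 8 small heat shock protein genes, AT2G29500 rose by 1.86, a call lost without any one of the 4 arrays, and AT4G21870 fell, with 85.0 and 86.3 at 3 h against 492 and 603 at 0.25 h (-2.64 ± 0.24). In roots 6 of the 8 rose and 0 fell, and for 2 of the 8, AT4G21870 included, the shoot change was below the root change. This list was written after values had been seen. BCAT4, an enzyme of methionine-derived glucosinolates, had 2021 and 1829 at 3 h, against 762.1 and 779 at 0.25 h (1.32 ± 0.18). CYP71B26 had 399 and 391 at 3 h, against 99.6 and 80.1 at 0.25 h (2.12 ± 0.33). DELTA-OAT, an ornithine aminotransferase, rose by 0.82 in shoots and by 0.69 in roots.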
